A study of Homo sapiens with 6 samples.

Results

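The genes described here are 10 genes around the aldehyde dehydrogenase reaction on retinal: the retinol and retinal enzymes RDH10, RDH11, RDH13, RDH14, DHRS3 and RETSAT, and the nuclear receptors RARA, RARG, RXRA and RXRB. They were chosen by gene name, and all 10 were found among the 16000 genes of the deposited table. Poly(A) RNA was sequenced from LNCaP, an established androgen-sensitive human prostate cancer cell line, in 3 samples of ALDH high cells and 3 samples of ALDH low cells. ALDH high cells were the 10% with the brightest ALDEFLUOR signal, a fluorescent measure of aldehyde dehydrogenase activity, and ALDH low cells were the 10% with the dimmest. Both groups came from this single line, carried no other treatment and were grown in RPMI-1640 with 10% FBS, and the labels do not say how long after the sort RNA was taken. The comparison asks whether the expression of these genes depends on the ALDH group.

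Cells take up vitamin A as retinol, and short-chain dehydrogenases convert retinol and retinal into each other. RDH10 is known chiefly for oxidising retinol to retinal, while RDH11, RDH13, RDH14 and DHRS3 are known chiefly for the reverse step. Aldehyde dehydrogenases such as ALDH1A3 oxidise retinal irreversibly to retinoic acid, so the reductases draw on the same substrate. Retinoic acid binds the receptors RARA and RARG, which act on target genes as pairs with RXRA or RXRB. RETSAT saturates retinol and is not a retinal reductase, and RDH10 works mainly in the oxidising direction, so that the name retinal reductases covers the enzymes only in part. Read counts say nothing of the direction in which an enzyme works.

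The samples did not separate by ALDH group. On the first principal component of the 500 most variable genes, which held 69.7% of their variance, ALDH high 1, ALDH high 3 and ALDH low 2 lay on one side, with scores between 19.1 and 21.2, and both other ALDH low libraries with ALDH high 2 on the other, between −23.1 and −17.2. Transcripts of the mitochondrial genome took 4.55% to 4.90% of reads in the first set of libraries and 2.01% to 2.996% in the second. Library totals ran from 23817310 to 30617873 reads. All 8 luminal prostate markers listed (among them KLK3, HOXB13 and KRT18) were in the table, with a summed level from 181853 to 198564 normalized reads for ALDH high and from 179397 to 214975 for ALDH low. Of the 6 leukocyte markers only CD68 had a row, at 16.4 to 32.0 in ALDH high and 19.9 to 27.9 in ALDH low, of the 6 fibroblast markers only COL1A1, at 1469 to 1776 and 821 to 1451, and of the 5 endothelial markers only VWF, at 189 to 417 and 235 to 386. The table held 2 of 6 basal markers, KRT14 and ITGA6, with a sum of 2758 to 4205 in ALDH high and 2617 to 3444 in ALDH low. It held 2 of 6 neuroendocrine markers, SYP and ENO2, with a sum of 1246 to 2933 in ALDH high and 1174 to 2279 in ALDH low. ALDH high 2 and ALDH low 2 thus each lay with libraries labelled as the other group. The labels were used as given, and whether those of these 2 samples had been exchanged could not be settled from the data, so every difference between the groups, and its value without both, is one between libraries as labelled. The part of these cell types, of the mitochondrial share and of the arrangement of libraries in the results below was not tested.

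The promoter windows of RDH11, DHRS3 and RDH14 are shown because these genes had the widest range over the 6 libraries. Each runs from 250 bases before to 50 bases after a RefSeq start site (GRCh38.p14), 5′ to 3′ on the gene's strand, and is the window nearest to the gene's start in GENCODE. The windows are chr14:67695715-67696014 for RDH11, chr1:12618161-12618460 for DHRS3 and chr2:18560604-18560903 for RDH14, all on the minus strand. Capitals mark a CCAAT box or a half-site of retinoid and related receptors, on either strand.
RDH11: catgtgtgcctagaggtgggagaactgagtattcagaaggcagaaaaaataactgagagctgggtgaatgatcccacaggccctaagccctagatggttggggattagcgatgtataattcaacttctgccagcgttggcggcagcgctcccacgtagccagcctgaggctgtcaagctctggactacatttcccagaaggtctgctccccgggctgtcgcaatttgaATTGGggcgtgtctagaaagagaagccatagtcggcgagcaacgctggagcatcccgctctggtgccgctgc
DHRS3: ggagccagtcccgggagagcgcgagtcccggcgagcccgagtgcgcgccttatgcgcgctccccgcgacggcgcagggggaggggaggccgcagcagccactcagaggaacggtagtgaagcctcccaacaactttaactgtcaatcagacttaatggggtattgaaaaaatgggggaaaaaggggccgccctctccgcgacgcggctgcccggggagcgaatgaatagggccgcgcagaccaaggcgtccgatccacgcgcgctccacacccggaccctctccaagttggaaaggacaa
RDH14: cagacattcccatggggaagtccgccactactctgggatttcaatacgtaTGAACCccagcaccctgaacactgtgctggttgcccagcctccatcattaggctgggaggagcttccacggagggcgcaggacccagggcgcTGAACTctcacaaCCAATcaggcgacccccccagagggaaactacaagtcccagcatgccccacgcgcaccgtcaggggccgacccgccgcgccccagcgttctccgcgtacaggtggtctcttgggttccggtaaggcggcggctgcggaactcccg

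The half-sites were searched on both strands as AGGTCA, which 13.8% of the 35116 RefSeq windows of this length hold, as AGTTCA, which 10.4% hold, as GGGTCA, which 14.1% hold, and as GGTTCA, which 8.62% hold. At least 1 of them occurs in 38.6% of all windows. RDH14 held 2 half-sites, while the RDH11 and DHRS3 windows shown held none. The DHRS3 window shown lies wholly upstream of that gene's GENCODE start at 12617731. The DHRS3 windows chr1:12616740-12617039 and chr1:12596564-12596863, which are not shown, each held 1 half-site. Direct repeats of the half-sites with 1, 2 or 5 bases between them are the arrangement read by retinoid receptor pairs. None was found in the windows searched, which cover 9 members, all but RDH10. Such repeats occur in 0.131%, 0.0399% and 0.0883% of all windows. These repeats contain the half-sites, so the searches overlap. The CCAAT box occurs in 34.6% of all windows, and RDH11 and RDH14 each held 1. The androgen receptor half-site AGAACA (14.8% of windows) and the sterol element TCACNCCAC (1.13%) had no match in the 3 windows shown. A match or its absence says nothing of binding, and these windows leave out enhancers.

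None of the 10 genes passed an adjusted p of 0.05 between ALDH high and ALDH low, where 0% of the 16000 genes passed. The test was limma on log2(normalized reads + 1) with Benjamini-Hochberg adjustment over all genes, and its smallest adjusted p over the table was 0.984. None of the 10 had an unadjusted p under 0.05, against 338 of 16000 genes (2.11%). The count of genes called was also 0 with edgeR, DESeq2 and limma-voom on recovered reads, where 357, 355 and 337 genes had an unadjusted p under 0.05. The log2 difference lay above 0 in 4 members and below 0 in 6, with a median of −0.02, beside 8362 above and 7638 below with a median of 0.02 over all genes. For 9 of the 10 members, all but RDH11, the 95% interval of the difference lay within a 2-fold change either way, as it did for 74.7% of all genes. In these bulk samples, fewer cells that express a gene and less RNA per cell cannot be told apart.

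**Figure D1:**
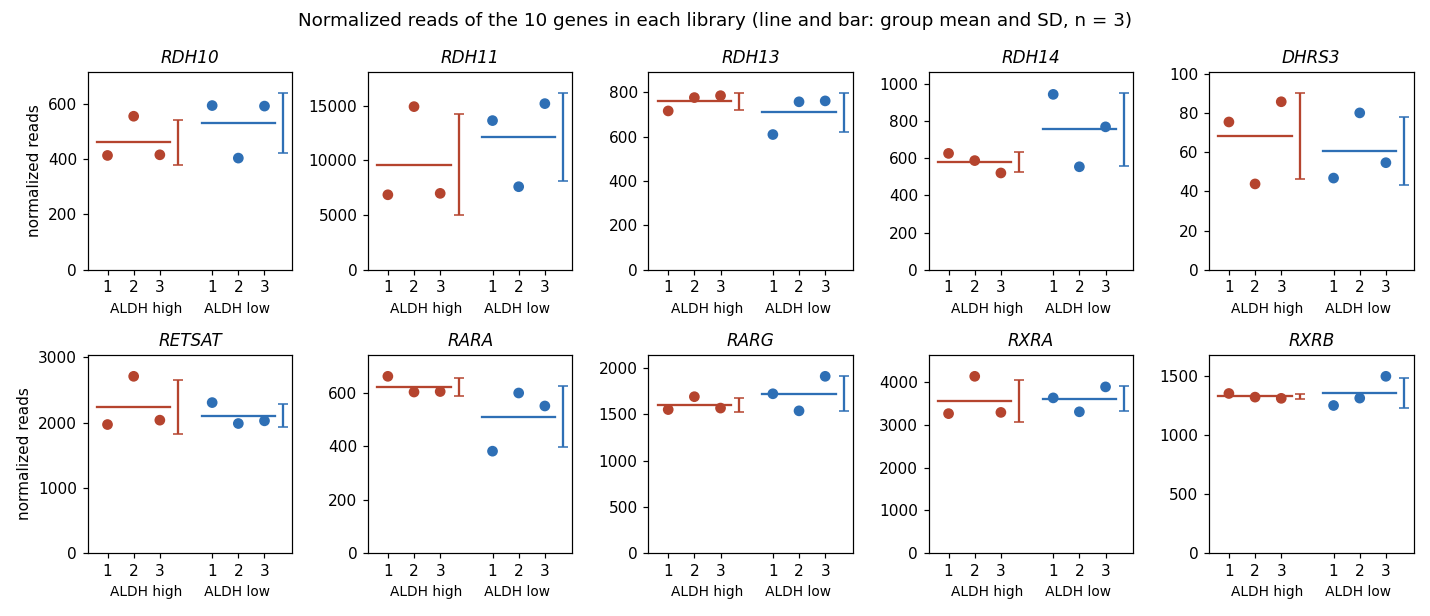
Normalized reads of each of the 10 genes (vertical axis, from 0) in the 3 ALDH high libraries (red, left) and the 3 ALDH low libraries (blue, right), with lines at the group means and bars of 1 SD. In RDH11 the libraries ALDH high 1, ALDH high 3 and ALDH low 2 sit between 6853 and 7589 and the other libraries between 13632 and 15184, while the groups do not overlap only in RARA.

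RDH10, the enzyme that forms retinal from retinol (ENSG00000121039, chromosome 8, 73294612 to 73325281, GRCh38), counted 414, 556 and 416 normalized reads in ALDH high 1, 2 and 3, against 594, 404 and 592 in ALDH low 1, 2 and 3. The groups overlapped, with ALDH low 2 lowest and ALDH high 2 close to the other ALDH low libraries. The groups averaged 462 ± 81.3 for ALDH high and 530 ± 109 for ALDH low (± SD, n = 3 each), and the log2 difference was −0.19 (95% interval from −0.66 to 0.28, limma adjusted p = 0.984). Leaving out a single library gave differences from −0.37 (without ALDH low 2) to −0.10 (without ALDH low 1 or ALDH low 3). An antisense gene, RDH10-AS1, covers 5.22% of its exon bases and was not analysed here.

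RDH11 had the highest level per length and the widest range over the libraries of all 10 members. This retinal reductase of the endoplasmic reticulum was first described in prostate epithelium as an androgen-regulated gene (ENSG00000072042, chromosome 14, 67676801 to 67695814). It had 6853, 14909 and 6981 normalized reads in libraries ALDH high 1, 2 and 3, against 13632, 7589 and 15184 in ALDH low 1, 2 and 3. Each group thus held libraries at both levels, with ALDH high 2 beside ALDH low 1 and 3, and ALDH low 2 beside ALDH high 1 and 3. These are the same sets of libraries as on the first principal component. The highest library exceeded the lowest 2.22-fold, a ratio reached by 8.15% of the 11506 genes averaging 100 normalized reads or more, whose median ratio was 1.53. A protein-coding gene, AL049779.1, overlaps 6.27% of RDH11's exon bases on the same strand and had 8.57 to 19.1 normalized reads. Counts behind the values of RDH11 were 6107 to 16341 reads. The mean was 9581 ± 4615 in the ALDH high group and 12135 ± 4012 in the ALDH low group (± SD, n = 3 each), and the log2 difference was −0.38 (95% interval from −1.11 to 0.35, limma adjusted p = 0.984). With 1 library left out it ran from −0.75 (without ALDH high 2) to −0.19 (without ALDH low 3). Without both libraries numbered 2 the difference was −1.06 (−1.44 to −0.67, limma adjusted p = 0.04996), 1 of 107 genes called in the 4 libraries that remain, where 0.669% of all genes were called. Those 4 libraries are ALDH high 1 and 3 and ALDH low 1 and 3, which lie on opposite sides of the first principal component. Hence a group difference and that arrangement cannot be told apart in them. The libraries left out are those that lay with the other group in these same data. For a gene that follows that arrangement, the adjusted p is therefore no separate test of the ALDH groups.

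RDH14, a further microsomal reductase of the family (ENSG00000240857, chromosome 2, 18554723 to 18560680), counted 625, 587 and 520 normalized reads in ALDH high 1, 2 and 3, against 943, 553 and 768 in ALDH low 1, 2 and 3. ALDH low 1 and 3 were above every ALDH high library, while ALDH low 2 lay among them. The groups averaged 577 ± 53.2 for ALDH high and 755 ± 195 for ALDH low (± SD, n = 3 each), and the log2 difference was −0.36 (95% interval from −0.82 to 0.10). Its unadjusted limma p of 0.115 was the smallest of the 10 members, with an adjusted p of 0.984. The authors' deposited table gives RDH14 a log2 fold change of 0.39 for ALDH low over ALDH high, with p = 0.0875 and adjusted p = 0.998. Without both libraries numbered 2 the difference was −0.58 (adjusted p = 0.25), and without ALDH low 1 it was −0.18. The read-through gene NT5C1B-RDH14 shares 16.6% of its exon bases on the same strand, where a read cannot be given to either gene.

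RDH13, a family member bound to mitochondria (ENSG00000160439, chromosome 19, 55039108 to 55071291), had its groups overlap. It had 715, 776 and 784 normalized reads in libraries ALDH high 1, 2 and 3, against 609, 757 and 761 in ALDH low 1, 2 and 3. ALDH low 1 was the lowest library and the other 5 lay close together. The mean was 758 ± 37.5 in the ALDH high group and 709 ± 86.3 in the ALDH low group (± SD, n = 3 each), and the log2 difference was 0.10 (95% interval from −0.25 to 0.46), which was −0.002 without ALDH low 1. Other genes overlap it on the same strand (9.60% of its exon bases) and on the opposite strand (4.06%), with 4.19 to 20.1 and 32.1 to 59.7 normalized reads.

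DHRS3, a reductase that retinoic acid induces and that is known in mouse to limit retinoic acid formation in embryos (ENSG00000162496, chromosome 1, 12567910 to 12617731), had the lowest level per length of the 10. It had 75.4, 43.8 and 85.7 normalized reads in libraries ALDH high 1, 2 and 3, against 46.8, 80.0 and 54.6 in ALDH low 1, 2 and 3. ALDH high 1, ALDH high 3 and ALDH low 2 were the 3 highest libraries for DHRS3 and the 3 lowest for RDH11. The groups averaged 68.3 ± 21.9 for ALDH high and 60.5 ± 17.4 for ALDH low (± SD, n = 3 each), and the log2 difference was 0.15 (95% interval from −0.61 to 0.92). The sign turned without ALDH high 3, at −0.04, and without ALDH low 1, at −0.01, and the difference was 0.66 without both libraries numbered 2 (adjusted p = 0.343). Only 48 to 82 reads per library lie behind these values, so counting error is part of the spread.

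RETSAT, which saturates retinol to dihydroretinol (ENSG00000042445, chromosome 2, 85342088 to 85354620), counted 1969, 2708 and 2036 normalized reads in ALDH high 1, 2 and 3, against 2305, 1984 and 2026 in ALDH low 1, 2 and 3. ALDH high 2 stood above the other libraries, and the groups overlapped. The mean was 2238 ± 409 in the ALDH high group and 2105 ± 175 in the ALDH low group (± SD, n = 3 each), and the log2 difference was 0.08 (95% interval from −0.29 to 0.44). Without ALDH high 2 it was −0.07. The gene ELMOD3 overlaps 5.67% of RETSAT's exon bases on the opposite strand and had 398 to 524 normalized reads.

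RARA, the retinoic acid receptor alpha (ENSG00000131759, chromosome 17, 40309192 to 40357643), was the only member whose groups did not overlap. It had 663, 604 and 606 normalized reads in libraries ALDH high 1, 2 and 3, against 382, 600 and 552 in ALDH low 1, 2 and 3. The gap between the groups was small, since ALDH low 2 lay just under ALDH high 2, and most of the difference came with ALDH low 1. The groups averaged 624 ± 33.5 for ALDH high and 511 ± 115 for ALDH low (± SD, n = 3 each), and the log2 difference was 0.31 (95% interval from −0.12 to 0.75, limma adjusted p = 0.984). ALDH high lay wholly above ALDH low in 588 of all genes (3.67%) and wholly below in 531 (3.32%), beside 1 of the 10 members. Without ALDH low 1 the difference was 0.12. The antisense gene RARA-AS1 shares 11.8% of RARA's exon bases and had 129, 119 and 134 normalized reads in libraries ALDH high 1, 2 and 3, against 130, 142 and 169 in ALDH low 1, 2 and 3, so that the lowest library of RARA was not low in RARA-AS1.

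RARG, the retinoic acid receptor gamma (ENSG00000172819, chromosome 12, 53210567 to 53232980), counted 1552, 1692 and 1568 normalized reads in ALDH high 1, 2 and 3, against 1723, 1538 and 1912 in ALDH low 1, 2 and 3. ALDH low 3 was highest and ALDH low 2 lowest, so the groups overlapped. ALDH low 2, ALDH high 1 and ALDH high 3 were the lowest libraries, as for RDH11, within a narrower range (1.24-fold). The mean was 1604 ± 76.2 in the ALDH high group and 1725 ± 187 in the ALDH low group (± SD, n = 3 each), and the log2 difference was −0.10 (95% interval from −0.42 to 0.22). It was −0.02 without ALDH low 3, −0.18 without ALDH low 2 and −0.22 without both libraries numbered 2.

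RXRA, the retinoid X receptor alpha and partner of many nuclear receptors (ENSG00000186350, chromosome 9, 134317098 to 134440585), counted 3262, 4136 and 3291 normalized reads in ALDH high 1, 2 and 3, against 3631, 3305 and 3888 in ALDH low 1, 2 and 3. The 3 lowest libraries were those that were also lowest for RDH11, within a much narrower range (1.27-fold). The groups averaged 3563 ± 496 for ALDH high and 3608 ± 292 for ALDH low (± SD, n = 3 each), and the log2 difference was −0.02 (95% interval from −0.36 to 0.31), whose sign turned with total-count scaling (0.02) and without 1 of several libraries.

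RXRB, the retinoid X receptor beta (ENSG00000204231, chromosome 6, 33193588 to 33200688), had the narrowest range of the 10, with a ratio of 1.20 between its highest and lowest library, which 94.0% of the 11506 genes reached or exceeded. It had 1351, 1320 and 1310 normalized reads in libraries ALDH high 1, 2 and 3, against 1249, 1312 and 1496 in ALDH low 1, 2 and 3. The log2 difference was −0.02 (95% interval −0.34 to 0.29), with the opposite sign under total-count scaling (0.02) and without ALDH low 3 (0.05). The zinc transporter gene SLC39A7 runs in the opposite direction and overlaps 6.22% of RXRB's exon bases. It had 5190, 5005 and 5115 normalized reads in libraries ALDH high 1, 2 and 3, against 4927, 5092 and 6167 in ALDH low 1, 2 and 3. SLC39A7 stayed between 3.79 and 4.12 times RXRB in every library, and ALDH low 3 was highest and ALDH low 1 lowest in both genes. Whether the libraries kept strand is not stated, so reads of the shared stretch cannot be told apart.

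**Figure D2:**
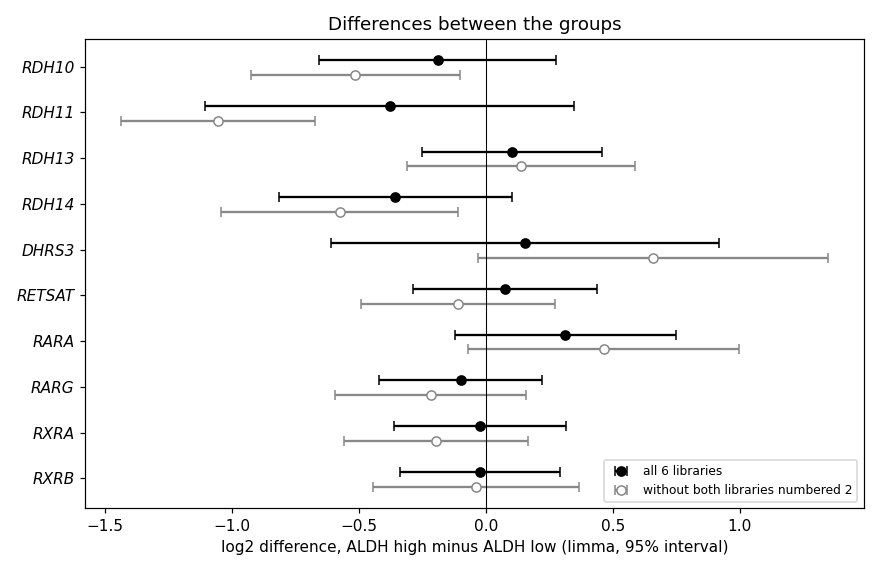
Log2 difference of each gene, ALDH high minus ALDH low (horizontal axis), with its 95% interval from limma, over all 6 libraries (filled points) and without both libraries numbered 2 (open points). Over all 6 libraries every interval includes 0. Without the libraries numbered 2 RDH11 lies at −1.06, with RDH10 at −0.52 and RDH14 at −0.58, while DHRS3 lies at 0.66 and RARA at 0.46. Of these only RDH11 had a limma adjusted p under 0.05. The groups of the open points lie on opposite sides of the first principal component, so this adjusted p is no separate test of the ALDH groups.

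The levels were set side by side per length, as normalized reads per kilobase of the union of annotated exons, over all 6 libraries. RDH11 stood highest with a mean level of 1968 (range 1242 to 2752), above the range of every other member. RETSAT followed at a level of 542 (492 to 676), then RDH14 at 420 (328 to 594), RXRB at 342 (319 to 382), RARG at 325 (300.1 to 373) and RXRA at 324 (294 to 373). The range of RDH14 overlapped those of RETSAT, RXRB, RARG and RXRA, and the ranges of RXRB, RARG and RXRA overlapped each other, while the lowest library of RETSAT lay above the highest of RXRB, RARG and RXRA. RARA had a level of 120 (80.8 to 140), RDH10 of 93.2 (75.9 to 112) and RDH13 of 85.4 (70.9 to 91.2), again with overlapping ranges, and wholly below RXRA. DHRS3 was last at a level of 21.2 (14.4 to 28.2), wholly below the other 9. With the longest transcript as the length, RDH11, RETSAT and DHRS3 kept their places, while RDH14 came sixth at 420, behind RXRA at 621, RARG at 562 and RXRB at 461. RDH13 moved most under that length, to a level of 243 (202 to 259), which was wholly above RDH10 at 126 (102 to 150.5) and overlapped RARA at 187 (126 to 218). The places of RDH13 and RDH10 in the order therefore depend on the length used.

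**Figure D3:**
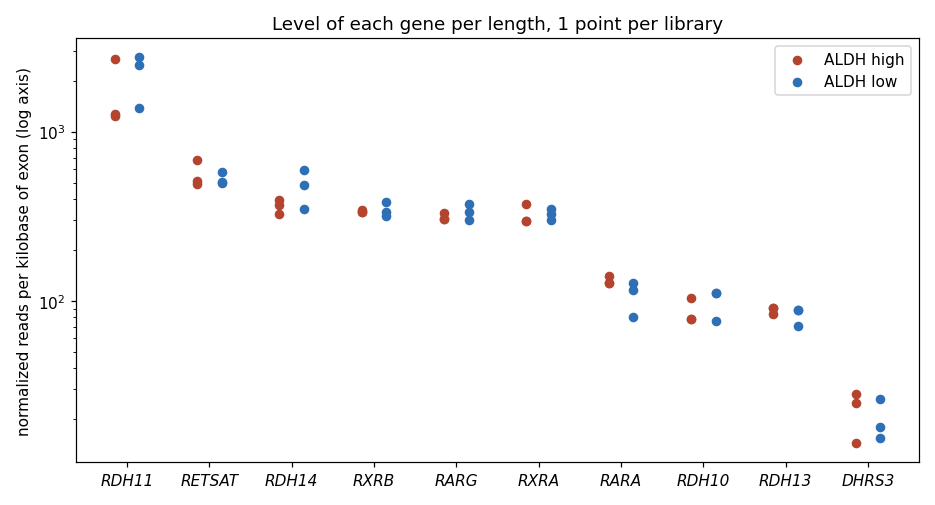
Normalized reads per kilobase of exon (log axis) for each gene, ordered by mean, with 1 point per ALDH high library (red, left) and per ALDH low library (blue, right). RDH11 lies between 1242 and 2752 and DHRS3 between 14.4 and 28.2, and the other 8 genes lie between these.

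The balance between members within a library was read per length. RDH11 exceeded RDH10 in level by 16.0, 25.9 and 16.2 times in ALDH high 1, 2 and 3, against 22.1, 18.1 and 24.7 times in ALDH low 1, 2 and 3, so both groups held lower and higher ratios. RARA stood at 0.463, 0.387 and 0.419 of RARG in ALDH high 1, 2 and 3, against 0.240, 0.423 and 0.313 in ALDH low 1, 2 and 3. RARG thus exceeded RARA per length in every library, most in ALDH low 1. The ratio of RXRA to RXRB stayed between 0.854 and 1.11 over all libraries, and with this length measure neither was above the other throughout.

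Across the 6 libraries, the members formed a few parallel patterns, given here as a description in which every gene shares the same 6 libraries and their arrangement. RDH10 and RDH11 ran together with a Pearson r of 0.974 on log2 values over the 6 libraries, and RDH11 with RXRA at 0.936 and with RARG at 0.876. DHRS3 ran opposite to RDH11 (r = −0.941), RDH10 (−0.927) and RXRA (−0.896). RARA ran with RDH13 (0.839) and opposite to RDH14 (−0.851), and these 3 genes share ALDH low 1 as an extreme library. RXRB had no r beyond 0.592 with any other member.

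Over the 11506 genes that averaged 100 normalized reads or more, those most like the 3 widest-ranging members were ranked by Pearson r on log2 values over the 6 libraries. For RDH11 they were PLA1A (r = 0.998), a phospholipase gene, DHCR7 (0.998), of the last step of cholesterol synthesis, and ST6GALNAC1 (0.997), a sialyltransferase gene. DHCR7 had 4422, 6831 and 4474 normalized reads in libraries ALDH high 1, 2 and 3, against 6632, 4565 and 6794 in ALDH low 1, 2 and 3. For DHRS3 they were ABCB9, TMCO6 and SOHLH2 (r = 0.993, 0.992 and 0.992), and for RDH14 KCNK1, CD58 and FAIM (0.993, 0.993 and 0.989). With 6 libraries and so many genes ranked, high values of r are common, and they say nothing of shared function.

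Of 104 other genes listed for the retinoid pathway, 61 had a row in the table, and limma called 0 of them in either direction, as for 0% of all genes. LIPE was the only one with an unadjusted p under 0.05. The log2 difference lay above 0 in 44 and below 0 in 17, with a median of 0.14. Over all genes 8362 lay above 0 and 7638 below, with a median of 0.02. The 18 corepressors and coactivators on the list gave 17 of the differences above 0. All 61 genes share the same 6 libraries, so their signs are not separate observations. ALDH high lay wholly above ALDH low in 3 of the 61 (LIPE, CYP2S1 and CARM1) and wholly below in none, beside 3.67% and 3.32% of all genes.

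For the oxidation of retinal to retinoic acid, 2 of 5 listed genes had a row. ALDH1A3, the retinaldehyde dehydrogenase among them, had 111, 133 and 110 normalized reads in libraries ALDH high 1, 2 and 3, against 135, 102 and 84.6 in ALDH low 1, 2 and 3. It did not follow the pattern of RDH11, with ALDH low 1 highest and ALDH low 3 lowest. Its log2 difference was 0.15 (95% interval −0.41 to 0.72), and an antisense gene covers 27.5% of its exon bases. AOX1, an aldehyde oxidase gene, had means of 20.7 ± 2.27 for ALDH high and 14.01 ± 7.25 for ALDH low (± SD, n = 3 each).

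Of 12 genes for retinol uptake, carriers and esters, 4 had a row. RBP5, a cellular retinol-binding protein, had 83.8, 21.0 and 117.7 normalized reads in libraries ALDH high 1, 2 and 3, against 18.2, 80.0 and 17.1 in ALDH low 1, 2 and 3. Its high libraries were those where DHRS3 was high and RDH11 low. LIPE, a lipase that also cleaves retinyl esters, had 51.3, 21.0 and 30.9 in ALDH high 1, 2 and 3, against 13.9, 20.5 and 6.43 in ALDH low 1, 2 and 3. Its log2 difference was 1.32 (95% interval 0.19 to 2.45, limma unadjusted p = 0.0265, adjusted p = 0.984), and 6 to 49 reads per library lie behind it. DGAT1, which also forms retinyl esters, had means of 1468 ± 350 for ALDH high and 1450 ± 208 for ALDH low, and PNPLA4 1134 ± 78.8 for ALDH high and 1328 ± 242 for ALDH low (± SD, n = 3 each).

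Of 24 other retinol and retinal oxidoreductases, 12 had a row, with 5 differences above 0, 7 below and a median of −0.09. DHRS7, the most abundant of them, had 2425, 4228 and 2534 normalized reads in libraries ALDH high 1, 2 and 3, against 4196, 2546 and 5400 in ALDH low 1, 2 and 3, the same libraries high as in RDH11. CBR1, ADH5 and DHRS4 differed by −0.14, −0.18 and −0.21 on the log2 scale, each with an interval that included 0. RDH12, the retinal reductase of photoreceptors and the neighbour of RDH11 on chromosome 14 on the opposite strand (67701886 to 67734452), was looked at after its values were seen. It had 37.7, 132 and 37.7 normalized reads in libraries ALDH high 1, 2 and 3, against 129, 26.4 and 176 in ALDH low 1, 2 and 3. Here too the libraries with high RDH11 were high.

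Of 9 genes for carrying and clearing retinoic acid, 2 had a row. CYP2S1, a cytochrome P450 gene, had means of 154 ± 12.8 for ALDH high and 120 ± 10.6 for ALDH low (± SD, n = 3 each), with a log2 difference of 0.36 (95% interval −0.12 to 0.84, limma adjusted p = 0.984). CRABP2, which carries retinoic acid to its receptors, had 28.3, 11.9 and 38.9 in ALDH high 1, 2 and 3, against 9.53, 21.5 and 26.8 in ALDH low 1, 2 and 3. The groups overlapped in CRABP2.

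Of 16 other receptors that pair with RXR or bind retinoic acid, 12 had a row, with 9 differences above 0, 3 below and a median of 0.15. NR1H2, THRA and NR2F2 differed by −0.02, 0.07 and 0.07 on the log2 scale. THRB, a thyroid hormone receptor, had means of 1441 ± 653 for ALDH high and 1472 ± 385 for ALDH low (± SD, n = 3 each), with ALDH high 2 highest at 2193. All 18 corepressors and coactivators listed had a row, with 17 differences above 0 and 1 below and a median of 0.17, and none was called. Over all genes 8362 differences lay above 0 and 7638 below, with a median of 0.02. The 18 genes share the same 6 libraries, so their signs are not separate observations. NCOR1, PRAME, a repressor of retinoic acid receptors, and TBL1XR1 differed by 0.15, 0.19 and −0.002, and the coactivator CARM1 had means of 1487 ± 62.8 for ALDH high and 1353 ± 64.2 for ALDH low.

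Of 28 listed targets of retinoic acid other than the members, 13 had a row, with 9 differences above 0, 4 below and a median of 0.05. FOXA1, RAI14 and BTG2 differed by 0.15, −0.14 and 0.04 on the log2 scale, each with an interval that included 0. RAI14 was highest in ALDH high 2 and ALDH low 1, with 2194 and 1875 normalized reads, and ran from 956 to 1242 in the other 4 libraries. Without both libraries numbered 2, limma called 3 of the 61 genes, RBP5, RDH12 and NR2F1 (adjusted p = 0.0420, 0.0478 and 0.0168), beside 0.669% of all genes. In that fit 2454 of all genes had an unadjusted limma p under 0.05, against 338 over all 6 libraries. The groups of the 4 libraries that remain lie on opposite sides of the first principal component. A group difference and that arrangement cannot be told apart in them. Since the libraries left out are those that lay with the other group in these same data, these calls are no separate test of the ALDH groups. NR2F1, an orphan receptor that binds the same half-sites, had 308, 47.4 and 328 normalized reads in libraries ALDH high 1, 2 and 3, against 63.2, 265 and 53.6 in ALDH low 1, 2 and 3.

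**Figure D4:**
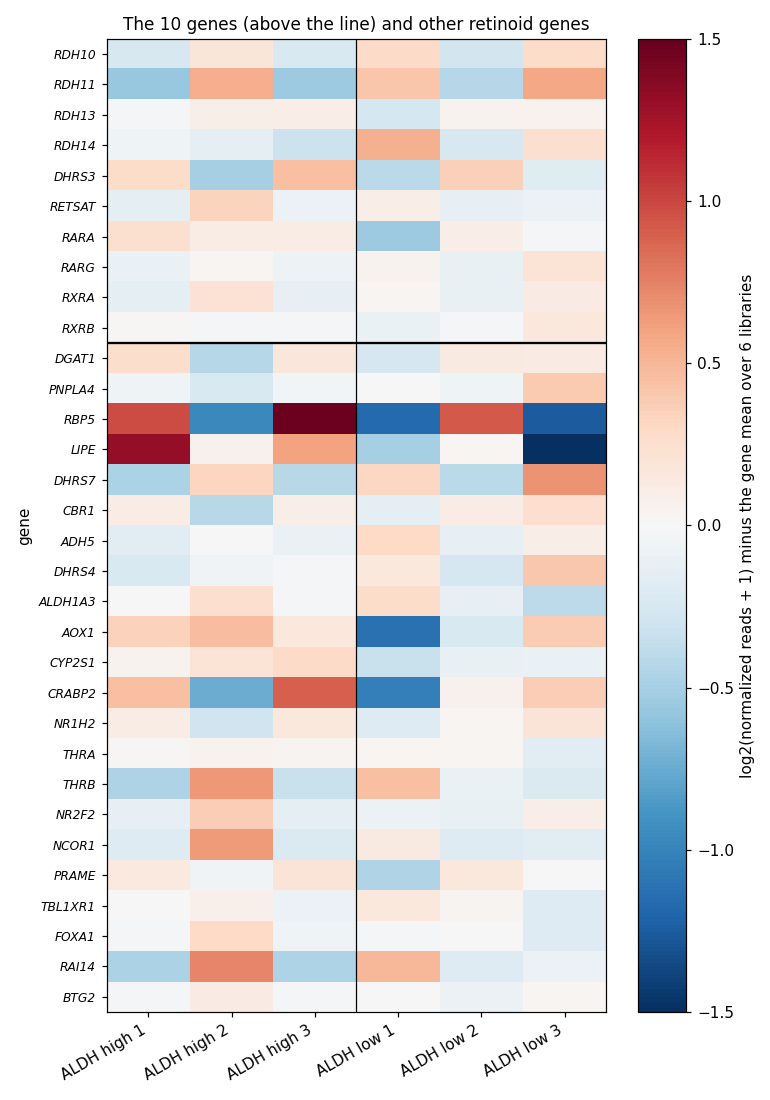
Each library's log2(normalized reads + 1) minus the gene's mean over the 6 libraries (colour, which stops at 1.5 either way), for the 10 genes (above the line) and 22 other retinoid genes (below it), with the ALDH high libraries left of the ALDH low ones. ALDH high 1, ALDH high 3 and ALDH low 2 share a direction in RDH10, RDH11, DHRS3, RARG, RXRA, RBP5, DHRS7 and PRAME, among others.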

How the data were processed

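RNA of 6 LNCaP samples was sequenced after poly(A) selection, and unique hits in exons were counted per gene with featureCounts, per the labels' protocols. The submitters' processing notes name Trimmomatic 0.36, STAR 2.5.2b, Subread 1.5.2, DESeq2 and GRCh38, and do not name the annotation release. The values the authors deposited are a normalized signal, in which every library's read counts share 1 size factor as divisor, with their log2 fold change (ALDH low over ALDH high), p-value and adjusted p-value. The table held 16000 genes and 46 spike-in rows, and its lowest row mean was 9.65 normalized reads. Whole reads were recovered, with at least 99.99% of each sample's values whole within 0.02 of a read. They served as an alternative in which edgeR 4.0.16, DESeq2 1.42.0 and limma-voom each called 0 genes.

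The main test was limma 3.58.1 (R 4.3.3) on log2(normalized reads + 1), fitted with a mean-variance trend, all 6 samples, no filter and no covariate, with Benjamini-Hochberg adjustment over all genes. Every difference is ALDH high minus ALDH low on this log2 scale, on which low genes change less than in reads. Scripts were tested on simulated data. The labels do not say whether a group's samples were sorted separately, so the p-values reflect no more than the spread among these 6 libraries, which may be technical. Coordinates and exon lengths came from GENCODE 29 (15939 of 16000 identifiers matched) and promoters from RefSeq (GRCh38.p14). Windows were searched for 9 of the 10 members, all but RDH10. Genes, lists and tests were chosen with earlier results of these data known. Named were all members, ALDH1A3, the 4 most abundant genes of each list, apart from some that are not reported here, and the 3 genes most like each of the 3 widest-ranging members; RDH12, NR2F1, CARM1 and the overlapping genes were added after their values were seen. Tried were other pseudocounts, a minimum mean of 100, total-count scaling, no trend, a replicate block, scaling without mitochondrial genes, and leaving out libraries.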

Additional observations from a re-analysis of the deposited data

Results flagged for a closer look

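ERCC spike-ins, control RNAs added to a sample, gave reads outside every comparison above, more than the limit set by a count of 0. They made up 0.487% of all reads over the 6 libraries, with 0.630%, 0.399% and 0.403% in ALDH high 1, 2 and 3, against 0.491%, 0.556% and 0.448% in ALDH low 1, 2 and 3. The limit for a count of 0 was at most 1.26e-05% per library and covers counting error only. With 3 samples per group, no search for outlying samples was made.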

How the results depend on the processing

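The count of genes called was 0 over all 6 libraries and with each alternative except leaving out both libraries numbered 2, which gave 107 genes (75 higher and 32 lower in ALDH high), 1 of the 10 members (RDH11) and 3 of the other 61 retinoid genes. In the libraries that remain there, a group difference and the arrangement on the first principal component cannot be told apart. The libraries left out are those that lay with the other group in these same data, so these calls are no separate test. Leaving out any single library gave 0 to 0 calls for all genes, members and other retinoid genes alike. With the replicate number as a block, 0 genes were called. Over the same-numbered pairs the correlation of deviations was −0.35, −0.51 and −0.04, and no sample correlated best with its own number. These deviations carry the arrangement on the first principal component, which crosses the groups. They therefore cannot tell whether samples of the same number were sorted together.

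Of 169 combinations of a member and an alternative, 157 kept their sign and their side of the threshold, 11 turned sign and 1 (RDH11) passed the threshold. RDH10, RDH11, RDH14, RARA and RARG kept their sign under every alternative run. Signs turned in RDH13 without ALDH low 1 (−0.0016; highest without a single library 0.16), in DHRS3 without ALDH high 3 (−0.035) and without ALDH low 1 (−0.0094; highest 0.44), and in RETSAT without both libraries numbered 2 (−0.11) and without ALDH high 2 (−0.069; highest 0.16). They also turned in RXRA with total-count scaling (0.021), without ALDH high 1 (0.035), without ALDH high 3 (0.029) and without ALDH low 3 (0.032; lowest −0.14), and in RXRB with total-count scaling (0.021) and without ALDH low 3 (0.052; lowest −0.078). The cause was not tested. The difference of RDH11 ran from −1.06 to −0.19 over the alternatives, that of RDH10 from −0.52 to −0.10, that of RDH14 from −0.58 to −0.18, that of RARG from −0.22 to −0.02 and that of RARA from 0.12 to 0.46. DHRS3, with a mean under 100 normalized reads, gave no value under that minimum. Dividing by the length of the longest transcript, in place of the union of exons, moved the level per kilobase of 8 members by more than 1 SD.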
